A study of Oryza sativa with 6 samples.

Results

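Clustered K+-specific IP-G4s are segments of rice DNA that were pulled down by the BG4 antibody after folding in K+, that lie within 1 kb of another such segment, and that have no Na+-specific segment within 1 kb. An IP-G4 is a region enriched by BG4, an antibody that recognises G-quadruplexes (G4s). The members were chosen by position from a pair of deposited lists, 1 for each salt, that hold the segments found in both replicates of that salt and not in both replicates of the other. The gap between the facing edges of neighbouring segments was at most 1000 bp to a K+-specific one and over 1000 bp to any Na+-specific one. This rule held for 3024 of 16725 K+-specific IP-G4s, beside 25509 specific IP-G4s of both kinds in all. They were set against 12466 isolated K+-specific IP-G4s, which had no specific IP-G4 of either kind within 1 kb. A further 219 K+-specific IP-G4s had neighbours of both kinds, and 1016 had a Na+-specific neighbour only.

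A G4 is a four-stranded fold of guanine-rich DNA in which planes of guanines are stacked on each other. Monovalent cations sit between these planes and hold them together, and K+ generally does so better than Na+. Crowding agents such as PEG200 imitate the packed interior of a cell. Several G-rich tracts in one stretch of DNA can each fold, so that G4s can occur as neighbours.

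In BG4-DNA-IP-seq, 2-week-old seedlings of wild-type japonica rice (Oryza sativa) were crosslinked with formaldehyde, and genomic DNA was then prepared. The DNA was fragmented, denatured, allowed to reassociate in PEG200 with KCl or NaCl at the same concentration, and immunoprecipitated with BG4. The groups are K+PEG200, Na+PEG200 and input DNA (not analysed here), with 2 replicates each, and members share these libraries and are not replicates of a condition. The buffers for antibody binding and washing held KCl in both conditions, and the DNA was folded in vitro after extraction, so that the groups model the salt during folding only. The specific lists give positions on 12 chromosomes of the MSU v7.0 genome and no signal, and they were made from all 4 IP libraries, so that no measure in this report is independent of how the members were chosen. All values are therefore descriptions without a test. Peaks of single libraries were used on the first 5.86 Mb of Chr1. The sequence of the segments and the genes they overlap were not analysed here.

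The K+-specific IP-G4s lay close to each other more often than an even scatter would place them. Members made up 18.1% of the K+-specific IP-G4s (3024 of 16725, 95% Wilson interval 17.5 to 18.7). If the same segments were placed evenly and independently on each chromosome without overlap, 8.30% would be members by calculation, so that the observed number was 2.18 times this level. With the density of each 1 Mb bin in place of that of the chromosome, the level was 8.63% and the observed number 2.1 times as high. The excess thus also stood within stretches of 1 Mb. Isolated K+-specific IP-G4s made up 74.5%, against 87.1% under even placement. By the same rule with the lists exchanged, 697 of 8784 Na+-specific IP-G4s (7.93%) were clustered without a K+-specific neighbour, which is 1.87 times their own level of 4.23%. The Na+-specific list is shorter, so that its level is lower, and the difference between both ratios was not tested.

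The excess was concentrated at short gaps. Of all gaps between neighbouring K+-specific IP-G4s, 1124 were at most 500 bp, against 376 under even placement, a ratio of 2.99. Between 500 and 1000 bp the ratio was 1.68, between 1000 and 2000 bp it was 1.46, and between 2000 and 5000 bp it was 0.976. The limit of 1 kb therefore cuts through a range in which gaps were still more frequent than under even placement. The level of 376 includes 76.0 gaps of up to 100 bp, where 0 were observed. Between 100 and 200 bp the ratio was 5.04. No gap was shorter than 110 bp. In the single libraries on Chr1, neighbouring peaks were likewise at least 112, 125, 118 and 114 bp apart in K+ replicates 1 and 2 and Na+ replicates 1 and 2, so that segments closer than this are not resolved. Between neighbouring members, the median gap was 370 bp, with quartiles of 214.5 and 644 bp, and 1031 of 1591 such gaps (64.8%) were at most 500 bp.

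**Figure D1:**
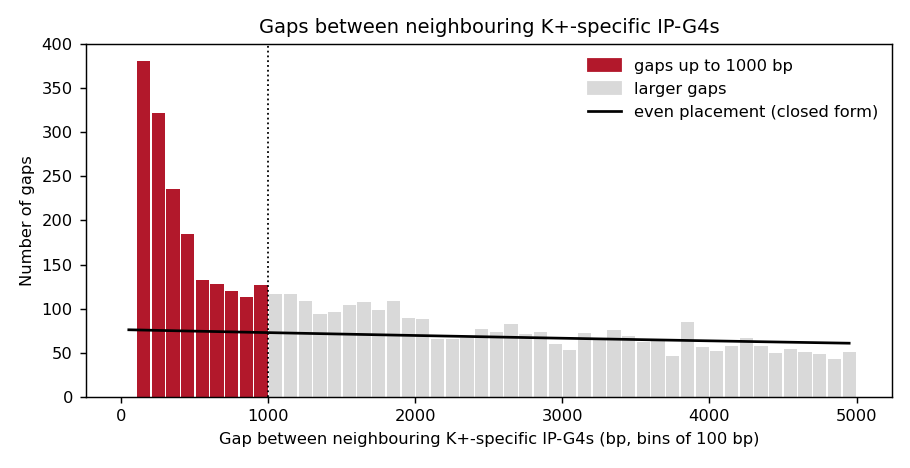
Number of gaps between neighbouring K+-specific IP-G4s in bins of 100 bp. Red bars are gaps up to 1000 bp, which join members and other clustered segments, grey bars larger gaps, and the line is even placement in closed form. No gap is under 110 bp, and each bar from 100 to 2000 bp stands above the line.

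The pairs next to the limit on either side differ in gap by a few bases only. The 3 widest gaps inside were 1000 bp on chromosome 9 (between segments of 260 and 241 bp, from 435315 and from 436575), 996 bp on chromosome 4 (448 and 265 bp, from 23923907 and from 23925351) and 995 bp on chromosome 5 (260 and 440 bp, from 10210447 and from 10211702). The 3 narrowest gaps outside were 1001 bp on chromosome 2 (204 and 200 bp, from 28718133 and from 28719338), 1002 bp on chromosome 11 (151 and 238 bp, from 1145778 and from 1146931) and 1003 bp on chromosome 1 (210 and 232 bp, from 16946088 and from 16947301).

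Segments joined by gaps of at most 1 kb were counted as one cluster. The members fell into 1433 clusters, and in 1359 of these every segment was a member, whereas the other clusters also held a segment with a Na+-specific neighbour. Most clusters were pairs: 1233 (86.0%) held 2 segments, 171 held 3, 22 held 4, 6 held 5 and 1 held 9. Without regard to Na+-specific neighbours, there were 1295 runs of exactly 2 K+-specific IP-G4s, against 680.0 under even placement, a ratio of 1.90. Runs of exactly 3 numbered 174 against 30.3, a ratio of 5.73. Runs of 4 or more numbered 30 against 1.42, or 2.06 with the density of each 1 Mb bin. The ratio to even placement thus rose with the number of segments in a run. An excess of short gaps by itself raises this ratio with each added segment, so that the rise is no separate finding.

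From its first to its last base, a cluster spanned a median of 1035 bp (quartiles 784 and 1377 bp, range 211 to 6850 bp). The median span was 970.0 bp for clusters of 2, 1723 bp for clusters of 3 and 2719 bp for clusters of 4. K+-specific segments covered a median of 58.0% of the span. This share was 59.9% in clusters of 2, 49.1% in clusters of 3 and 42.3% in clusters of 4. It was 51.4% in the 6 clusters of 5 and 44.5% in the cluster of 9, so that it did not fall steadily with size. The median distance between neighbouring clusters was 153.6 kb, and 114 of 1421 distances (8.02%) were at most 10 kb. The level of even placement was not calculated for these distances, so that they are not called near or far.

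The largest cluster was on chromosome 8 from 12963718 to 12970567. Its 9 segments were all members and were 206, 200, 423, 467, 655, 229, 222, 406 and 241 bp long in genome order. The gaps between them ranged from 206 to 864 bp, 44.5% of the 6850 bp was covered, and the nearest Na+-specific IP-G4 was 41.7 kb away. Next came a cluster of 5 members on chromosome 5 from 10210447 to 10214555 (4109 bp), with segments of 260, 440, 138, 271 and 707 bp and a Na+-specific IP-G4 at 10.8 kb. It contains one of the gaps just inside the limit, so that with a slightly stricter limit it would hold 4 segments. The third, on chromosome 8 from 14862519 to 14866237 (3719 bp), held 5 segments, of which 4 were members. Its first segment, 174 bp long, lay 771 bp from a Na+-specific IP-G4 and was left out by the rule, and the others were 252, 481, 185 and 240.0 bp long. These 3 clusters had the widest spans, and the cluster of 9 had the most segments. There were 6 clusters of 5 segments, of which the widest 2 are described.

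The members were close in length to isolated K+-specific IP-G4s. Their mean length was 290.3 bp (SD 151 across segments, n = 3024) and their median 256.5 bp, whereas isolated ones had a mean of 300.6 bp (SD 146, n = 12466) and a median of 260.0 bp. The difference of -10.3 bp in the mean was small against the spread among segments, and it lay at the short end. Of the members, 5.46% (95% Wilson interval 4.70 to 6.32) were under 100 bp and 19.3% (17.9 to 20.8) under 200 bp, against 2.25% (2.0 to 2.52) and 14.8% (14.2 to 15.5) of isolated ones. At the long end, 4.46% of members and 4.66% of isolated ones had 600 bp or more. Members were shorter in the mean on 11 of 12 chromosomes, with chromosome 7 as the exception (300.4 against 299.9 bp), and their share under 200 bp was larger on 12 of 12. When only segments of at least 200 bp were kept, members were 1.28 bp longer, and with a gap of up to 2 kb they were 1.67 bp longer, so that the sign of the mean difference rests on short segments and on the limit.

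On the stretch of Chr1 with peaks of single libraries, a called peak had at least 200 bp in all 4 libraries, so that a segment under 200 bp there is an overlap of peaks that only partly coincided between the K+ replicates. Over all chromosomes, segments under 200 bp were most frequent where the gap was narrowest. Among members with a neighbour within 200 bp, 24.6% of 694 were under 200 bp and 9.94% under 100 bp. With a nearest gap of 200 to 350 bp these shares were 19.0% and 5.85%, with 350 to 500 bp 18.8% and 3.69%, with 500 to 750 bp 16.7% and 3.89%, and with 750 to 1000 bp 15.5% and 2.01%. Of 1177 pairs made up of members only, 336 (28.5%) had one segment at least 2 times as long as the other. The longer segment of a pair had a median of 320.0 bp and the shorter one 213 bp.

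**Figure D2:**
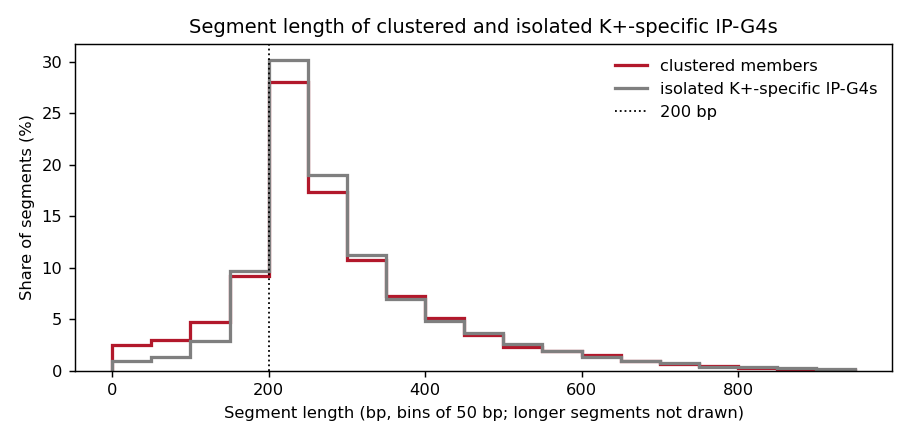
Segment length in bins of 50 bp for clustered members (red) and isolated K+-specific IP-G4s (grey), as the share of each class. The curves run close together above 200 bp, and members have larger shares at the short end (5.46% against 2.25% under 100 bp).

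The longest member was a segment of 1847 bp on chromosome 11 from 12289943 to 12291789, in a cluster of 3 that spanned 3402 bp. The next were 1255 bp on chromosome 6 from 26526864 to 26528118 and 1166 bp on chromosome 10 from 21880495 to 21881660, each in a pair. Their nearest Na+-specific IP-G4s were 167 kb, 28.6 kb and 17.9 kb away. Over all members this distance had a median of 14.5 kb, against 15.9 kb for isolated ones, and 22.2% of members against 18.6% of isolated ones had a Na+-specific IP-G4 within 5 kb. The rule set the lower bound of 1 kb for both classes, and beyond it members did not lie further from Na+-specific IP-G4s.

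Members occurred on every chromosome and above the level of even placement on 12 of 12. Chromosome 9 had the largest share, with 229 members among 1088 K+-specific IP-G4s (21.0%, 95% Wilson interval 18.7 to 23.6) and 8.75% under even placement. Chromosome 3 had the smallest, with 229 of 1500 (15.3%, 13.5 to 17.2) and 7.63%. In between, the shares were 16.5, 16.1 and 16.8% on chromosomes 1, 2 and 4 and between 18.7 and 19.7% on chromosomes 5 to 8 and 10 to 12. The 4 chromosomes with the smallest shares were thus chromosomes 1 to 4, which are also the longest by the extent of the lists. The ratio to even placement ranged from 2.0 on chromosome 3 to 2.43 on chromosome 11, and there were between 6.29 and 9.99 members per Mb.

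**Figure D3:**
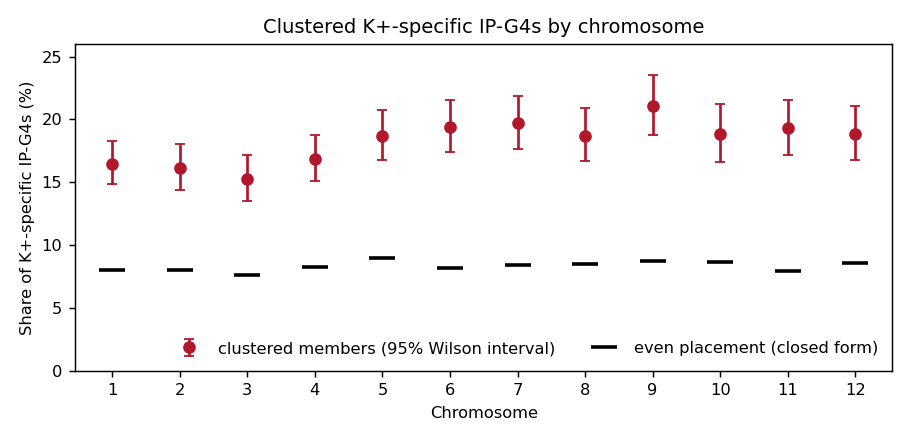
Share of clustered members among the K+-specific IP-G4s of each chromosome, in percent. Points are the observed shares with 95% Wilson intervals for counting error, and dashes are even placement in closed form. The points lie between 15.3 and 21.0%, and every dash lies between 7.63 and 8.97%.

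Each chromosome was divided between its first and last specific IP-G4 into 10 parts of equal length, numbered from the low coordinates. Members were most frequent in parts 4 and 5. These 2 parts held 977 members (32.3%, 95% Wilson interval 30.7 to 34.0) and 22.3% of isolated K+-specific IP-G4s. The share was larger for members on 12 of 12 chromosomes. Both parts were picked after seeing where these members lay, so that neither the interval nor the count of chromosomes is independent support. All K+-specific IP-G4s were also denser there, with 2097 and 1943 in these parts against 1389 to 1828 in the others. With the density of each 1 Mb bin, 222 and 192 members would be placed there, against 507 and 470 observed. The ratios of 2.28 and 2.44 were near those at the ends of the chromosomes (2.02 in part 1 and 2.36 in part 10), and the smallest was 1.74 in part 9. The positions of the centromeres were not analysed here.

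**Figure D4:**
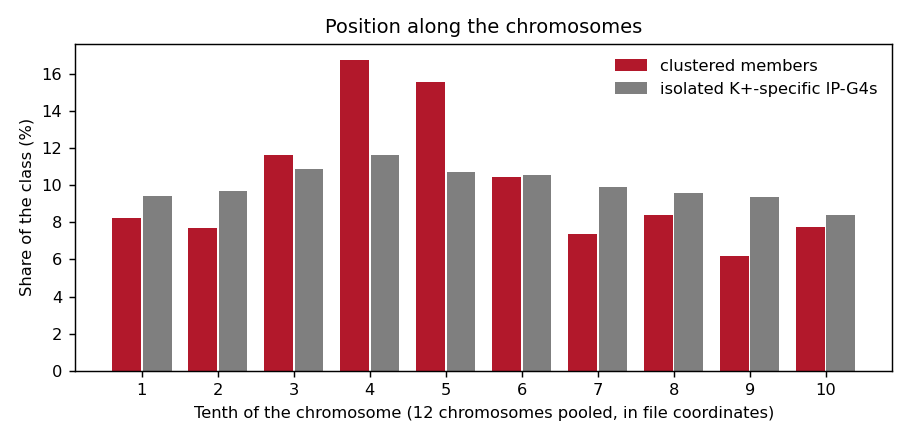
Share of clustered members (red) and of isolated K+-specific IP-G4s (grey) in each of 10 equal parts of the chromosome, all 12 chromosomes pooled, in percent of the class. Members peak in part 4 at 16.8% and in part 5 at 15.5%, where isolated ones have 11.6% and 10.7%.

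Among 379 bins of 1 Mb, 19 held no member, the median was 6 and the highest 41. The 3 richest bins were from 13 to 14 Mb on chromosome 2, with 41 members in 18 clusters, from 15 to 16 Mb on chromosome 6, with 35 in 16 clusters, and from 9 to 10 Mb on chromosome 7, with 34 in 15 clusters. Even placement within these bins would give 15.6, 11.1 and 11.6 members. They also held many K+-specific IP-G4s in all, namely 94, 79 and 81 against a median of 43 per bin. Members were 12% of the K+-specific IP-G4s in bins with under 35 of them, 15.0% with 35 to 44, 17% with 45 to 54, and 26.8% with 55 or more. The ratio to even placement within the bin was 2.1, 2.06, 1.93 and 2.29 in this order. The share was thus larger in denser bins, whereas the ratio had no such order.

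On the first 5.86 Mb of Chr1, the peaks of single libraries show what the members there are made of, and not those elsewhere. This stretch held 205 K+-specific IP-G4s, with 25 members in 13 clusters and 165 isolated ones. Members were 12.2% (95% Wilson interval 8.40 to 17.4) of them here, below the 16.5% of all of Chr1, against 6.52% under even placement. There were 748 and 871 peaks in K+ replicates 1 and 2 and 803 and 630 in Na+ replicates 1 and 2. The K+-specific list could be rebuilt from these peaks with 205 of 205 identical positions. When 1 library was left out, the number of members was 100 and 56 without K+ replicate 1 or 2, and 16 and 4 without Na+ replicate 1 or 2. In these settings the peaks of the remaining library stand for its condition whether or not they recur, so that such a change is in part built in. The study lists more unique reads for K+ replicate 2 than for K+ replicate 1 and for Na+ replicate 1 than for Na+ replicate 2, and the part of depth in these values was not tested.

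Many members overlapped a peak called in a single Na+ library. This held for 16 of 25 members (64.0%, 95% Wilson interval 44.5 to 79.8), against 117 of 165 isolated ones (70.9%, 63.6 to 77.3). Over all 205 K+-specific IP-G4s of the stretch the share was 70.7%, so that the members were near this background. The overlap came mainly from Na+ replicate 1, the more deeply sequenced Na+ library, with 13 members, and from replicate 2 with 3 members. Without replicate 1 the share was thus 12%. The −log10 p-values of the peak caller went down to 3.19 and 3.25 in Na+ replicates 1 and 2, so that a called peak can be weak. Under members the lowest were 4.81 and 5.71 in Na+ replicates 1 and 2. No member overlapped both, and 9 (36.0%) overlapped none, against 1 and 48 (29.1%) of 165 isolated ones. The K+-specific list leaves out segments that overlap one found in both Na+ replicates, so that the low counts for both are nearly fixed in advance. A G4 region of the common type, reproducible in both salts, lay within 1 kb of 4 of 25 members (16.0%) and of 17.6% of isolated ones.

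The order of members and isolated ones in the strength of their K+ peaks differed between the replicates. In K+ replicate 1, the fold enrichment over input had a median of 4.36 under members (range 2.1 to 6.40) and 3.88 under isolated ones (2.1 to 12.5). In replicate 2 it was 3.33 under members (2.19 to 8.60) and 3.79 under isolated ones (2.19 to 14.0). By p-value, 32% and 40% of the 25 members lay on a peak among the weakest 25% of the list in replicates 1 and 2, against 34.5% and 26.1% of isolated ones. Among the strongest 25% were 16% and 20% of the members, against 18.8% and 15.8% of isolated ones. In neither comparison did the replicates give the same order. The peaks were longer under members, with a median of 457 and 371 bp in replicates 1 and 2 against 314 and 317 bp under isolated ones, but the segment took up less of them. A median of 83.2% and 70.4% of the peak was kept in the member, against 89.0% and 86.1% in isolated ones. In all these values a peak that held 2 members was counted under each of them. The values of members are therefore not all from separate peaks, and such peaks weigh more.

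**Figure D5:**
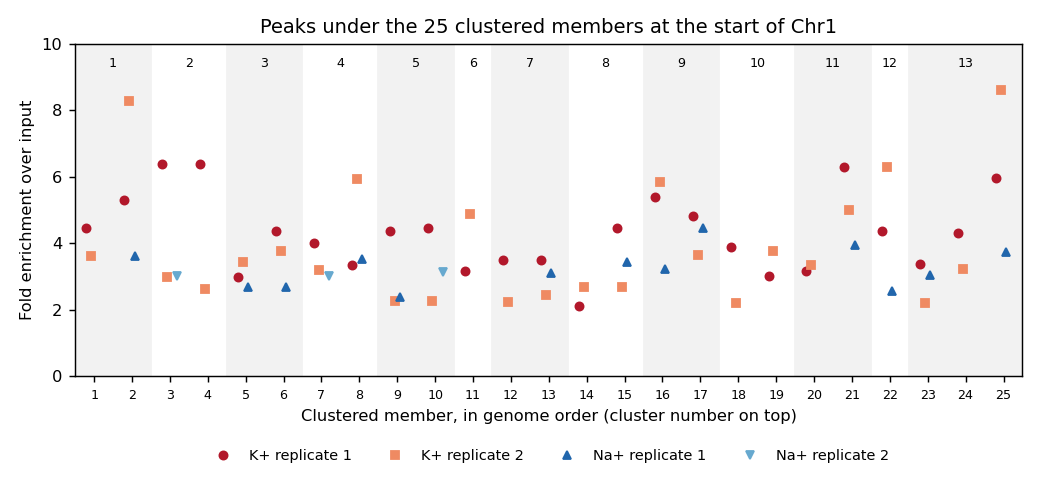
Fold enrichment over input of the peaks under the 25 clustered members on the first 5.86 Mb of Chr1, in genome order, with the number of the cluster on top and shading for alternate clusters. Circles and squares are K+ replicates 1 and 2, triangles up and down are Na+ replicates 1 and 2, and a missing triangle means that no peak was called. Each member has both K+ values, 13 have a value in Na+ replicate 1 and 3 in Na+ replicate 2.

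Members were ranked by the lower of their −log10 p-values in the K+ replicates. The strongest was on Chr1 from 5237804 to 5238076 (273 bp), as the second segment of a pair. Its peaks had fold enrichments of 6.28 and 4.99 in K+ replicates 1 and 2, against 3.94 in Na+ replicate 1 and no peak in Na+ replicate 2. The −log10 p-value was 19.7 and 19.5 in the K+ replicates and 13.1 in Na+ replicate 1. The first segment of that pair, 655 bp away, was only 40 bp long, with fold enrichments of 3.17 and 3.33 in the K+ replicates and no Na+ peak. It was thus lower than its neighbour in both K+ replicates.

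The next strongest was the last of 3 segments from 5807225 to 5807693 (469 bp). It had fold enrichments of 5.98 and 8.60 in K+ replicates 1 and 2, against 3.75 in Na+ replicate 1. The other segments of this cluster, from 5805975 to 5806236 and from 5806370 to 5806728, had 3.39 and 2.21, and 4.32 and 3.23, in K+ replicates 1 and 2. The first of them had a peak with 3.03 in Na+ replicate 1 and the second had no Na+ peak. It was the only cluster of the stretch with 3 segments, and none had a peak in Na+ replicate 2. The next in strength, from 3800531 to 3801076 (546 bp), had 5.38 and 5.83 in the K+ replicates and 3.22 in Na+ replicate 1. These 3 were ranked by their K+ peaks, so that their lower Na+ fold enrichments are no independent finding. Of the 16 members with a Na+ peak, 8 had a Na+ fold enrichment below that of both K+ replicates, 8 above that of 1 K+ replicate and 0 above both, against 64, 39 and 14 of 117 isolated ones. The partner of the last member, from 3801908 to 3802109, was among those above 1 K+ replicate, with 4.81 and 3.66 in K+ replicates 1 and 2 and 4.45 in Na+ replicate 1.

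Only 1 pair had no Na+ peak under either segment. Its first segment, from 4918560 to 4918760 (201 bp), had fold enrichments of 3.89 and 2.19 in K+ replicates 1 and 2. Its second, from 4919094 to 4919356 (263 bp), had 3.01 and 3.76. Each segment was thus weaker in a different replicate. A single member from 1929081 to 1929281 (201 bp), whose neighbour was left out by the rule, also had no Na+ peak, with 3.18 and 4.87 in the K+ replicates.

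Some neighbouring members were pieces of one peak. Since such segments share a source, they are not separate observations. On this stretch, 12 pairs of members were direct neighbours, and 4 of them (33.3%) lay on a single peak of one K+ replicate but not of the other. This was so for 2 pairs in replicate 1 and 2 in replicate 2, and for none in both. These 4 pairs were singled out after their values were seen. A peak of 1023 bp in K+ replicate 1 held the segments of 426 and 62 bp from 812713 and from 813425. A peak of 661 bp in the same library held those of 339 and 63 bp from 2465534 and from 2466026. In replicate 2, a peak of 915 bp held the segments of 238 and 208 bp from 1827974 and from 1828681, and a peak of 368 bp held those of 28 and 189 bp from 3765742 and from 3765921. The gaps of such pairs were at most 469 bp, but gaps as short as 133 bp also separated distinct peaks in both replicates. An alternative chosen after seeing the data merged segments that lay on the same K+ peak. The stretch then held 17 members among 201 (8.46%), against 6.40% under even placement. Without merging it held 25 among 205 (12.2%), against 6.52%. The share thus lay nearer to its even level after merging, and no interval was calculated for the merged share. How much of the excess on the other chromosomes comes from divided peaks was not tested, since peaks of single libraries were used on this stretch only.

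The DNA between neighbouring members was not always free of Na+ signal. In 8 of the 12 gaps a peak of a Na+ library was present, and in 1 of them a common segment. A Na+ peak under a member can reach into the gap, so that this count is not separate from the overlap of members with Na+ peaks. A background share for such gaps was not calculated. The absence of a Na+-specific IP-G4, by which the members were chosen, thus does not mean that no Na+ peak was called nearby.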

How the data were processed

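BG4-DNA-IP-seq was analysed from deposited peak lists. Per the study's methods, the authors used Trim Galore on the reads, BWA for alignment to the MSU v7.0 genome and SAMtools against duplicates, and MACS then called peaks of every library over the input. The fold enrichment is a ratio that the authors' peak caller gave, as are the deposited −log10 p-value and q-value, of which the p-value ranked peaks. The MACS score in the deposited lists was not used. Replicates were intersected with bedtools by the authors, and segments without overlap with a segment found in both replicates of the other condition make up the deposited specific lists, which hold positions only. Their starts count from 0 and are printed from 1.

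For single libraries, the peak lists analysed reach from the start of Chr1 to position 5855384 in all 4. Their incomplete last lines were left out. The depth of the libraries is not in these lists, and their number limits the precision.

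The classes, clusters and overlaps (at least 1 bp) were computed in Python 3.11.15 with numpy 2.4.6 and pandas 2.3.3, drawn with matplotlib 3.10.9, and tested on simulated data. Even placement was calculated in closed form for segments without overlap on each chromosome, between the first and last specific IP-G4. It ignores sequence and gaps in the assembly. Wilson intervals (95%) were calculated from their formula and cover counting error only. The members, classes and alternatives were chosen with earlier results of these data known. Regions are named where a cluster has the most segments (ties by wider span) or the widest span, where a member is longest or has the highest lower −log10 p-value of both K+ libraries, at the gap limit, in the richest 1 Mb bins, and on Chr1 where no Na+ peak or 3 segments were found. The gene table at hand is of another assembly and was not used.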

Additional observations from a re-analysis of the deposited data

How the results depend on the processing

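No paired analysis was made, since no result comes from a test. The 6 results were recomputed in 28 ways, of which 10 stayed within a factor of 1.5 for a count, the Wilson interval for a share or the 95% interval across segments for a length, 16 moved further and 2 reversed. With a gap of up to 500 bp or up to 2 kb, there were 2013 or 4622 members, 2.84 or 1.74 times the level of even placement, and the 3024 members were 2.1 times that level with the density of each 1 Mb bin. Members minus isolated IP-G4s was -17.0 bp with 500 bp, -3.5 bp in the median, and reversed to 1.67 bp with 2 kb and to 1.28 bp with segments of at least 200 bp. On the stretch of Chr1, members numbered from 4 to 100 with each library left out in turn, 4 with the 50% of peaks of the smallest p-values and 14 where peaks had to share at least 50% of each other's length. Those overlapping a Na+ peak were 12% to 52.0% with 1 Na+ library left out, and pairs on one peak were 2 without either K+ library. Apart from what the definitions fix, the cause was not tested. With 25 members, shares on this stretch have wide intervals, and for the other chromosomes the strength of members was not analysed here.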
